A study of Mus musculus with 12 samples.

Results

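The 10 genes of the NRF2 antioxidant response were followed in mouse intestinal crypts and colon tumors with and without ieCtnnb1, an intestinal enhancer of Ctnnb1. They are 10 of the 54532 genes listed in each of 2 deposited expression tables, 1 for crypts and 1 for tumors, and all 10 were found by symbol in both. The set was chosen by name around Nqo1, which had itself been picked on its crypt values: Nqo1 was number 8 of 14176 crypt genes in order of smallest p between knockout and wild type. The crypt contrast therefore chose the set, and its values are given as a description with no test. The p that picked Nqo1 did not use the tumor libraries, and there the genes were tested, although earlier results of both tables were known when the set was drawn up.

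NRF2, encoded by Nfe2l2, is a transcription factor that KEAP1 normally holds in the cytoplasm and delivers to the proteasome. Electrophiles and oxidants modify cysteines of KEAP1, so that newly made NRF2 enters the nucleus, pairs with small MAF proteins and binds antioxidant response elements of its target genes. The targets reduce quinones, make and recycle glutathione, repair oxidized proteins and break down heme, and in the intestine they are known for handling electrophiles from food and microbes.

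RNA-seq was carried out on 12 libraries, 3 in each of 4 groups of adult mice that received no treatment. Crypt_WT and Crypt_KO are small intestine crypts of Wild type and ieCtnnb1KO mice, and Tumor_WT and Tumor_KO are colon tumors of APCmin/+ and of APCmin/+;ieCtnnb1KO mice. Levels are the deposited FPKM, fragments scaled to gene length and to library size, and each library held 14457896 to 16156712 recovered fragments. Scaling to the mapped fragments of a library alone would let FPKM times gene length sum to a share of at most 1. That share ran from 0.9339 (Crypt_WT replicate 1) to 1.0491 (Crypt_WT replicate 2) in crypts. In tumors it ran from 0.9792 (Tumor_WT replicate 2) to 1.0301 (Tumor_KO replicate 3). The values therefore carry a further factor between libraries, and its origin was not tested. The enhancer deletion is homozygous and germline, so it is carried by all cells of the knockout animals, and both tumor groups carry the Apc mutation, so no normal colon was measured. Crypts were loosened with EDTA and passed through a filter that holds back villi, while tumors were taken as whole tissue with their stroma. The labels number the replicates, and the study counts them as mice.

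The labels were checked against marker genes. Ctnnb1 was at 120.6, 134.1 and 122.7 FPKM in Crypt_WT and at 101.7, 104.3 and 104.9 FPKM in Crypt_KO. In tumors it was at 298.6, 363.5 and 358.0 FPKM in Tumor_WT and at 279.4, 248.4 and 250.2 FPKM in Tumor_KO. Every knockout library was thus below every library of its control group, with log2 fold changes of -0.28 in crypts and -0.39 in tumors (95% confidence interval -0.69 to -0.08, limma adjusted p = 0.303). All 7 epithelial markers were above the expression filter in both tissues. Their summed level ran from 3973 to 5233 FPKM in crypts and from 3836 to 5288 FPKM in tumors, with Krt8 the most abundant at means of 1669 and 1588 FPKM.

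Some libraries stood apart in ways that the labels do not give. Crypt_WT replicates 1 and 2 held stomach mRNA: the 8 stomach markers summed to 81.5 and 67.4 FPKM there, against 14.6 FPKM in Crypt_WT replicate 3 and 9.85 to 16.3 FPKM in Crypt_KO. Gkn1 and Gkn2 were read in those 2 libraries and were at 0 in the other 4 crypt libraries. Pgc was at 17.5 and 13.8 FPKM there and at 1.74 to 2.24 FPKM in the other 4. Muc5ac was at 0.619 and 0.158 FPKM there and at 0 in the others, and Tff1 was read in Crypt_WT replicate 1 alone. Gkn3, the most abundant stomach marker with a mean of 19.1 FPKM, was read in all 6 crypt libraries, at 7.9 to 42.9 FPKM. Gif and Atp4a, both below the filter, did not follow. Gif was highest in Crypt_WT replicate 3, at 0.913 FPKM, and Atp4a was higher in every Crypt_KO library. The crypt counts of separated genes among the 10 and in the wider list are therefore also given without Crypt_WT replicates 1 and 2. That setting leaves Crypt_WT replicate 3, which also stood apart. It had the lowest median correlation with the other crypt libraries, at 0.9539, and the highest Paneth cell marker sum, at 50990 FPKM. In tumors, replicate 3 of either genotype had the female pattern, with Xist at 113.9 FPKM in Tumor_WT and 61.4 FPKM in Tumor_KO, while the other 4 tumor libraries and all 6 crypt libraries had the male pattern.

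The crypt data showed 1 clear separation among the 10 genes, that of Nqo1, the gene by which the set was chosen. Its mean was 12.5 ± 1.45 FPKM in Crypt_WT and 21.1 ± 0.986 FPKM in Crypt_KO (SD, n = 3), a ratio of 1.68. Txnrd1 was the other gene whose crypt groups did not overlap, with a ratio of 1.14. Nfe2l2 and Keap1, Gclc, Gclm and Gsr, and Srxn1 and Hmox1 had overlapping groups, and Slc7a11 was hardly read. Of the 9 genes above a mean of 0.5 FPKM in crypts, 2 lay higher in knockout without overlap and 0 lay lower, beside 6.79% and 5.15% of all 14176 crypt genes, or 11.9% in either direction. Nothing is read from that count, since the crypt contrast made the choice.

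The factor and its sensor come first. Nfe2l2 (ENSMUSG00000015839, mm10 chr2:75675513-75704641, minus strand) was at 57.6, 48.5 and 45.2 FPKM in Crypt_WT and at 65.3, 67.6 and 56.1 FPKM in Crypt_KO. The knockout libraries were mostly the higher ones, and Crypt_KO replicate 3 lay just inside the wild-type range (log2 fold change 0.32, SE 0.144). Keap1 (ENSMUSG00000003308, chr9:21229730-21239361, minus strand), the adaptor that marks NRF2 for degradation, was at 11.2, 10.8 and 11.7 FPKM in Crypt_WT and at 12.5, 10.2 and 11.3 FPKM in Crypt_KO. Both extremes of Keap1 were knockout libraries, and its groups overlapped (log2 fold change 0.00, SE 0.118). Gm16754, an antisense gene, shares 3317 bases with Keap1, and it was read at a mean of 0.566 FPKM in crypts and 1.2 FPKM in tumors. The labels do not say whether the libraries keep strand, so fragments in the shared bases cannot be assigned to either gene with certainty.

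Nqo1 (ENSMUSG00000003849, chr8:107388225-107403206, minus strand) encodes the NAD(P)H quinone reductase that turns quinones into hydroquinones without a radical intermediate. It was at 13.7, 10.9 and 13.0 FPKM in Crypt_WT and at 21.7, 19.9 and 21.6 FPKM in Crypt_KO. All 3 knockout libraries lay above all 3 wild-type libraries, with a wide gap between the groups and a log2 fold change of 0.73 (SE 0.125). Without the 2 libraries that held stomach mRNA the log2 fold change was 0.67. With the replicate numbers as a replicate block it was 0.73 (SE 0.135). In bulk crypts, fewer cells of a type and less RNA per cell cannot be told apart. The 8 enterocyte markers summed to 4289, 6413 and 11270 FPKM in Crypt_WT and to 9376, 6972 and 10510 FPKM in Crypt_KO, with Fabp2 the most abundant at a mean of 2817 FPKM and no marker at 0. The enterocyte sums overlapped between groups, while the log2 fold changes of the 8 markers had a median of 0.55 and ran from 0.07 for Anpep to 1.06 for Rbp2, the 1 marker that was higher without overlap. Other crypt lists also differed, and markers without overlap in this paragraph stand beside 6.79% higher and 5.15% lower of all crypt genes. The 6 Paneth cell markers summed to 18410, 26380 and 50990 FPKM in Crypt_WT and to 20550, 17140 and 20260 FPKM in Crypt_KO, with overlap, a median log2 fold change of -0.52, Lyz1 and Mmp7 lower without overlap, and Defa24 the most abundant at a mean of 12580 FPKM. The 6 enteroendocrine markers summed to 172.6, 151.3 and 201.8 FPKM in Crypt_WT and to 107.4, 150 and 143.9 FPKM in Crypt_KO, without overlap by a narrow margin. Chga and Chgb were lower without overlap, and Chgb was the most abundant at 69.8 FPKM. Their margins were also narrow, between replicate 2 of Crypt_WT and of Crypt_KO: 34.5 and 34.4 FPKM for Chga, and 64.4 and 63 FPKM for Chgb. Whether these margins hold after rescaling was not tested. The 6 colonocyte markers had sums that overlapped, at 618.8 to 910.5 FPKM in Crypt_WT and 560.4 to 849 FPKM in Crypt_KO, and Guca2a was the most abundant at 661.7 FPKM. Their median log2 fold change was 0.08 over 4 tested markers, with Car4 and Slc26a3 higher without overlap, Guca2a at -0.30 and Saa1 at -1.44 with overlap, and Car1 and Aqp8 below the filter. Goblet cell, macrophage, erythroid and mast cell sums also overlapped, with median log2 fold changes of -0.32, -0.64, -0.50 and 0.53. Those of stem cells, B and plasma cells and T cells overlapped as well, at 0.00, -0.23 and 0.03. Axin2, Jchain and the fibroblast marker Col3a1 were lower without overlap, and Cd3d was higher. The part of these cell types in the Nqo1 values was not tested.

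**Figure D1:**
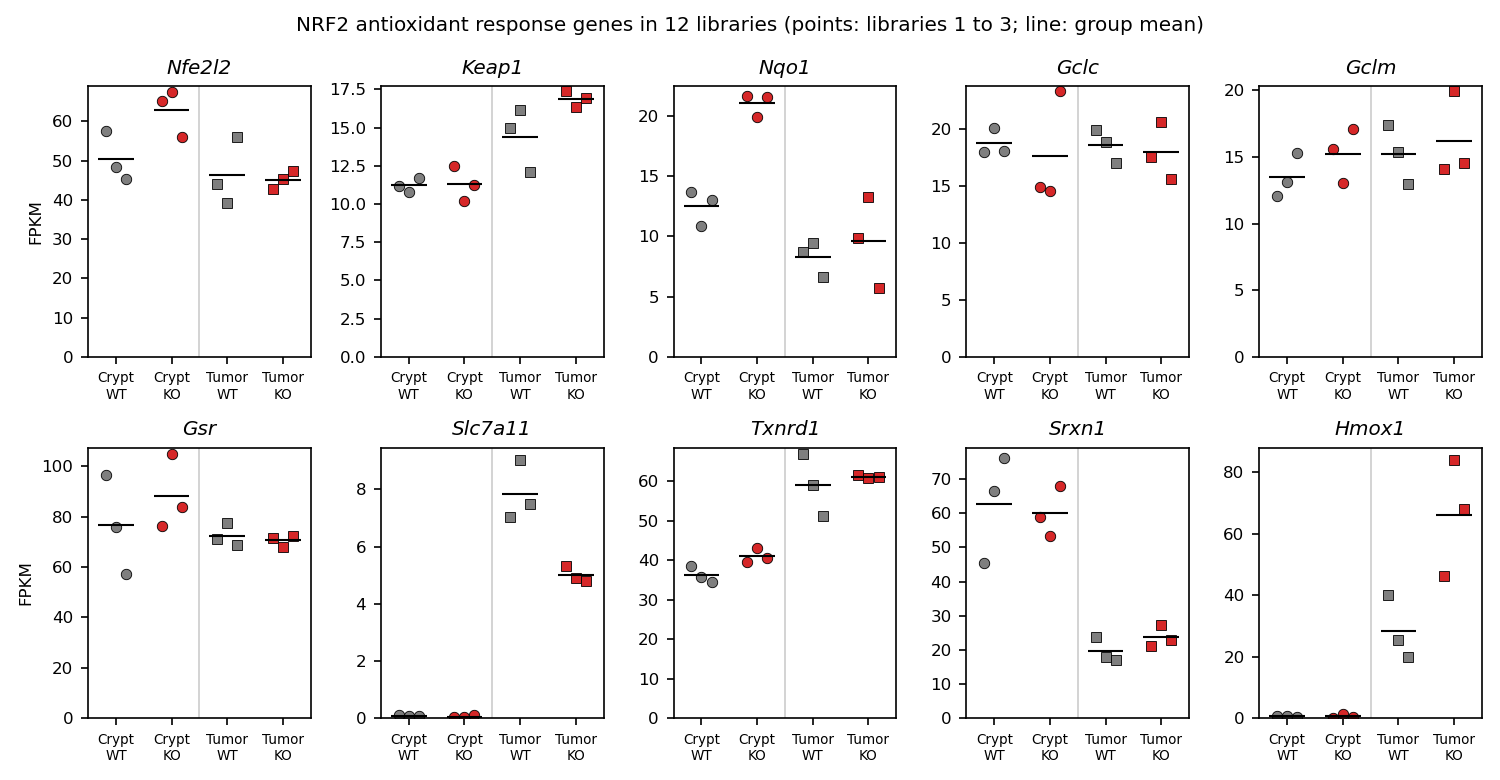
FPKM of each of the 10 genes in every library, by group, where points are libraries and lines are group means. Nqo1 ran from 10.9 to 13.7 FPKM in Crypt_WT and from 19.9 to 21.7 FPKM in Crypt_KO, while its tumor groups overlapped at 6.67 to 9.48 and 5.74 to 13.3 FPKM.

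Glutathione supply was described through 4 genes in crypts. Gclc (ENSMUSG00000032350, chr9:77754535-77794485, plus strand), the catalytic subunit of the enzyme that joins glutamate to cysteine, was at 18, 20.1 and 18.1 FPKM in Crypt_WT and at 14.9, 14.5 and 23.3 FPKM in Crypt_KO. Crypt_KO replicates 1 and 2 were the lowest and Crypt_KO replicate 3 was the highest, so the groups overlapped (log2 fold change -0.12, SE 0.194). Gclm (ENSMUSG00000028124, chr3:122245557-122270732, plus strand), the modifier subunit of that enzyme, was at 12, 13.1 and 15.3 FPKM in Crypt_WT and at 15.6, 13.0 and 17.1 FPKM in Crypt_KO. Its groups overlapped through Crypt_KO replicate 2 (log2 fold change 0.17, SE 0.148). Gsr (ENSMUSG00000031584, chr8:33652523-33698163, plus strand), which reduces oxidized glutathione, was at 96.5, 75.9 and 57.1 FPKM in Crypt_WT and at 76.1, 105 and 83.7 FPKM in Crypt_KO. Both groups of Gsr spread widely and overlapped, with the highest library a knockout one and the lowest a wild-type one (log2 fold change 0.22, SE 0.222). Without the 2 libraries that held stomach mRNA, which were its 2 higher wild-type values, the Gsr log2 fold change was 0.61. Slc7a11 (ENSMUSG00000027737, chr3:49892526-50443614, minus strand), the light chain of the cystine importer, was at 0.111, 0.0846 and 0.0733 FPKM in Crypt_WT and at 0.0309, 0.0472 and 0.102 FPKM in Crypt_KO. These values rest on 7 to 24 fragments a library and overlap, and no difference in crypt Slc7a11 is read from them.

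Thioredoxin repair and heme breakdown complete the crypt description. Txnrd1 (ENSMUSG00000020250, chr10:82833951-82897712, plus strand), which reduces thioredoxin, was at 38.4, 35.8 and 34.4 FPKM in Crypt_WT and at 39.6, 43.0 and 40.6 FPKM in Crypt_KO. Gm38560, on the opposite strand, shares 13276 bases with Txnrd1 and was read at a mean of 1.24 FPKM in crypts and 0.937 FPKM in tumors, and Eid3 lies inside Txnrd1, at 0.267 and 1.15 FPKM. Fragments in the shared bases cannot be assigned with certainty here either. The Txnrd1 groups were apart by a narrow margin (log2 fold change 0.18, SE 0.110), and they overlapped when libraries were rescaled to the same total, by quantiles, or without the 50 genes with the most fragments. Srxn1 (ENSMUSG00000032802, chr2:152105516-152111376, plus strand), which restores overoxidized peroxiredoxins, was at 45.4, 66.4 and 76.3 FPKM in Crypt_WT and at 58.8, 53.3 and 68.0 FPKM in Crypt_KO. The knockout values of Srxn1 lay inside the wild-type range (log2 fold change -0.04, SE 0.212), and without the 2 libraries that held stomach mRNA the value was -0.35. Hmox1 (ENSMUSG00000005413, chr8:75093621-75100589, plus strand), which opens the heme ring, was at 0.848, 0.672 and 0.291 FPKM in Crypt_WT and at 0.21, 1.40 and 0.325 FPKM in Crypt_KO. Crypt Hmox1 rests on 6 to 41 fragments a library, its groups overlap (log2 fold change -0.06, SE 0.423), and it passed the filter through Crypt_KO replicate 2. Over the 9 genes above the filter, 6 log2 fold changes were above 0 and 3 below, with a median of 0.17, beside a median of 0.014 over all crypt genes. By quantiles the median was 0.08, beside 0.006 over all crypt genes. Without the 50 genes with the most fragments, 5 were above 0 and 4 below, with a median of 0.12 beside -0.030.

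The number of separated genes in crypts moved with the libraries used. It was 4 without Crypt_WT replicate 1, where Nfe2l2 and Gsr joined Nqo1 and Txnrd1, beside 15.5% of all genes higher and 12.6% lower in that setting. It was also 4 without Crypt_KO replicate 3, where Nfe2l2 joined on the higher side and Gclc on the lower side, beside 12.4% and 10.3%. Without both libraries that held stomach mRNA it was 5, of which Srxn1 lay on the lower side, beside 35.4% and 29.1%. That setting was added after the data were seen, and it leaves a single wild-type library, which is assumed to vary like the other group.

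In tumors the same genes were tested in libraries that gave no part of the p by which Nqo1 was picked. None of the 10 passed it, and Nqo1 itself differed by less than the spread between its tumor libraries. Hmox1 was higher in every Tumor_KO library, at a ratio of means of 2.32, and Slc7a11 was lower in every Tumor_KO library, at a ratio of 0.638. Keap1 was the third gene whose groups did not overlap, at a ratio of 1.17. That makes 2 of 10 without overlap on the higher side and 1 on the lower side, beside 11.4% and 10.6% of all 16743 tumor genes, or 22.1% in either direction.

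By limma with Benjamini-Hochberg adjustment over all tested genes, 0 of the 10 and 0 of all 16743 tumor genes (0%) had an adjusted p under 0.05. The voom form of limma on recovered fragments also gave 0. At an unadjusted p under 0.05, 1 of the 10 was higher (Hmox1) and 1 was lower (Slc7a11), beside 1417 (8.46%) higher and 1004 (6%) lower among all tumor genes. That split between directions depends on scaling: it was 1075 higher and 1346 lower at the same total, 1111 and 1284 by quantiles, and 1072 and 1354 without the 50 genes with the most fragments. In crypts limma likewise gave 0 (0%) of 14176 genes at an adjusted p under 0.05, while 494 genes lay higher and 335 lower when p was left unadjusted at 0.05, and voom gave 0. These crypt counts were 1253 higher and 973 lower without the 2 libraries that held stomach mRNA, and the split turned to 313 higher and 475 lower without the 50 genes with the most fragments.

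Tumor Nqo1 was at 8.67, 9.48 and 6.67 FPKM in Tumor_WT and at 9.88, 13.3 and 5.74 FPKM in Tumor_KO. The highest and the lowest library were both knockout, and the groups overlapped. The log2 fold change was 0.15 (SE 0.292, 95% confidence interval -0.55 to 0.85), with a limma adjusted p of 0.832. An exact two-sided permutation test gave p = 0.6, where 3 libraries against 3 allow no p below 0.1. The lowest Nqo1 value of each genotype belonged to replicate 3, the library with the female pattern. Since both female-pattern libraries are replicate 3, sex and that replicate number cannot be told apart. Among the 4 male-pattern libraries the knockout values of 9.88 and 13.3 FPKM were above the wild-type values of 8.67 and 9.48 FPKM, and in the female-pattern pair the knockout value of 5.74 FPKM was below the wild-type value of 6.67 FPKM. With sex as a covariate the log2 fold change was 0.15 (SE 0.168, limma adjusted p = 0.69). With the replicate numbers as a replicate block it was 0.15 (SE 0.158, limma adjusted p = 0.701), and the adjusted p ran from 0.485 to 0.994 over all alternatives. Single libraries set its direction: the log2 fold change was -0.11 without Tumor_KO replicate 2 and 0.46 without Tumor_KO replicate 3. Without Tumor_KO replicate 3 the Nqo1 groups did not overlap, and 4 of the 10 genes were then apart, 3 higher and 1 lower, beside 16% and 14.9% of all tumor genes in that setting.

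The factor and its sensor in tumors gave the following values. Nfe2l2 was at 44.0, 39.1 and 55.9 FPKM in Tumor_WT and at 42.9, 45.2 and 47.3 FPKM in Tumor_KO. The knockout libraries sat inside the wild-type range, with a log2 fold change of -0.02 (SE 0.139, interval -0.36 to 0.31, limma adjusted p = 0.95). Its sign turned when Tumor_WT replicate 3 was left out, to 0.12, and when Tumor_KO replicate 1 was, to 0.01. Keap1 was at 15.0, 16.1 and 12.1 FPKM in Tumor_WT and at 17.4, 16.4 and 16.9 FPKM in Tumor_KO. All knockout libraries of Keap1 were above the wild-type ones by a narrow margin, which was lost under each of the 3 rescalings. The Keap1 log2 fold change was 0.23 (SE 0.119, interval -0.05 to 0.52, limma adjusted p = 0.406).

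Of the glutathione genes, Slc7a11 was the 1 whose tumor groups were apart as deposited, and after quantile normalization Gsr was also lower without overlap. Slc7a11 was at 7.05, 9.02 and 7.49 FPKM in Tumor_WT and at 5.32, 4.91 and 4.79 FPKM in Tumor_KO. Every knockout library was below every wild-type library, and the knockout libraries were close to each other. The means were 7.85 ± 1.03 and 5.01 ± 0.278 FPKM (SD, n = 3). The log2 fold change was -0.59 (SE 0.118, interval -0.88 to -0.31), with a limma adjusted p of 0.269, so the difference did not pass over all genes. The values rest on 1041 to 2071 fragments a library.

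The other glutathione genes overlapped between tumor groups. Gclc was at 19.8, 18.8 and 17.0 FPKM in Tumor_WT and at 17.5, 20.6 and 15.6 FPKM in Tumor_KO, with a log2 fold change of -0.06 (interval -0.35 to 0.23, limma adjusted p = 0.852). Gclm was at 17.4, 15.4 and 12.9 FPKM in Tumor_WT and at 14.1, 19.9 and 14.6 FPKM in Tumor_KO, with a log2 fold change of 0.08 (interval -0.32 to 0.48, limma adjusted p = 0.846). For both subunits the highest knockout library was Tumor_KO replicate 2, and the lowest wild-type library was Tumor_WT replicate 3. Gsr was at 71.0, 77.5 and 68.8 FPKM in Tumor_WT and at 71.6, 67.8 and 72.4 FPKM in Tumor_KO. Its 6 libraries lay close together, with a log2 fold change of -0.04 (interval -0.24 to 0.17, limma adjusted p = 0.865), and of -0.19 after quantile normalization. The direction of each of these 3 genes turned when 1 library was left out: Gclc was at 0.04 without Tumor_KO replicate 3, Gclm at -0.03 without Tumor_WT replicate 3 and -0.08 without Tumor_KO replicate 2, and Gsr at 0.01 without Tumor_WT replicate 2.

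The thioredoxin genes overlapped in tumors as well. Txnrd1 was at 66.8, 59.1 and 51.1 FPKM in Tumor_WT and at 61.5, 60.8 and 61.1 FPKM in Tumor_KO. The knockout libraries were nearly equal and lay inside the wild-type spread. The log2 fold change was 0.06 (interval -0.21 to 0.32, limma adjusted p = 0.822), and it was -0.04 without Tumor_WT replicate 3 and -0.08 after quantile normalization. Srxn1 was at 23.8, 17.8 and 17.1 FPKM in Tumor_WT and at 21.2, 27.4 and 22.8 FPKM in Tumor_KO. Tumor_WT replicate 1 reached into the knockout range, and the log2 fold change was 0.28 (interval -0.09 to 0.66, limma adjusted p = 0.43). Without that library the number of separated genes in tumors was 5, with Txnrd1 and Srxn1 on the higher side, beside 19.7% of all genes higher and 19.2% lower in that setting.

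Of the 10 genes, Hmox1 had the log2 fold change farthest from 0 in tumors. Hmox1 was at 40.1, 25.5 and 19.8 FPKM in Tumor_WT and at 46.2, 83.9 and 67.9 FPKM in Tumor_KO. Every knockout library was above every wild-type library, although Tumor_KO replicate 1 was close to Tumor_WT replicate 1. The means were 28.5 ± 10.5 and 66.0 ± 18.9 FPKM (SD, n = 3). The log2 fold change was 1.22 (SE 0.305, interval 0.49 to 1.95), with a limma adjusted p of 0.269, so the difference did not pass over all genes. The exact two-sided permutation test gave p = 0.1 for Hmox1, Slc7a11 and Keap1. That is the smallest p that the design allows, and any gene whose groups do not overlap has it.

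**Figure D2:**
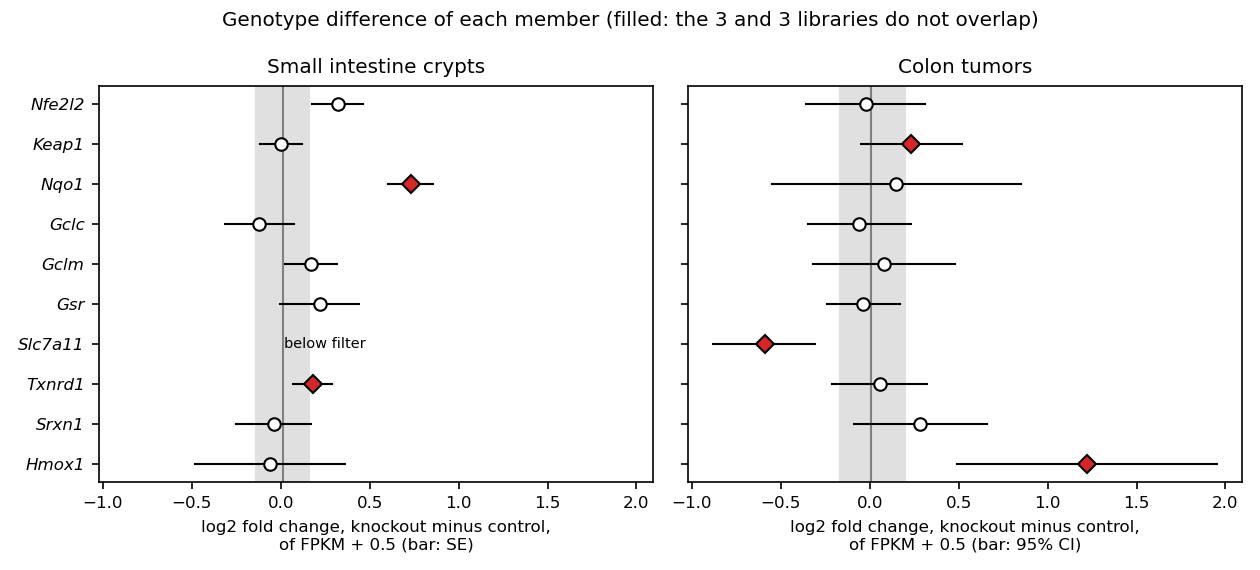
Log2 fold change of knockout over control for each gene in crypts and tumors, with the SE in crypts and the 95% confidence interval in tumors, filled where the groups do not overlap, over a gray band for the middle quartiles of all tested genes and a line for their median. In tumors Hmox1 was at 1.22 (0.49 to 1.95) and Slc7a11 at -0.59 (-0.88 to -0.31), and Nqo1 was at 0.73 in crypts and 0.15 in tumors.

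Whole tumors mix cell types, and several marker sums differed between genotypes beside these genes. Macrophages, which recycle heme, have 8 markers here that summed to 231.7, 157.4 and 197.3 FPKM in Tumor_WT and to 259.4, 328.9 and 218.3 FPKM in Tumor_KO. These sums overlapped, 1 marker was higher without overlap, C1qa was the most abundant at a mean of 75.8 FPKM, and Cd163 was below the filter. The 5 erythroid markers summed to 328.2, 345.8 and 246.0 FPKM in Tumor_WT and to 680.2, 52.9 and 1115 FPKM in Tumor_KO, with Hbb-bs the most abundant at 236.9 FPKM. The erythroid sums overlapped between groups. The part of macrophages and of blood in the Hmox1 values was not tested.

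The neutrophil, stromal, epithelial, stem cell and enteroendocrine sums separated the tumor groups, and marker counts without overlap stand beside 11.4% higher and 10.6% lower of all tumor genes. The 5 neutrophil markers summed to 209.3, 494.9 and 334.7 FPKM in Tumor_WT and to 207.3, 100.9 and 198.1 FPKM in Tumor_KO, 3 of them lower without overlap, with S100a9 the most abundant at 137.5 FPKM. The 8 fibroblast and smooth muscle markers summed to 455.6, 325.2 and 298.4 FPKM in Tumor_WT and to 475.0, 565.5 and 486.0 FPKM in Tumor_KO, 4 of them higher without overlap, with Col1a1 the most abundant at 120.8 FPKM. The 5 endothelial markers ran from 47.6 to 62.8 FPKM in Tumor_WT and from 67.3 to 73.8 FPKM in Tumor_KO, 3 of them higher without overlap, with Plvap the most abundant at 35.7 FPKM. All 6 goblet cell markers were higher without overlap, with sums of 1240 to 1277 FPKM in Tumor_WT and 2394 to 2896 FPKM in Tumor_KO and Spink4 the most abundant at 864.7 FPKM. All 7 epithelial markers were higher without overlap, with sums of 3836 to 4398 FPKM in Tumor_WT and 4946 to 5288 FPKM in Tumor_KO. The 6 colonocyte markers summed to 153.1 to 167.9 FPKM in Tumor_WT and to 253.1 to 446.4 FPKM in Tumor_KO, 3 of them higher without overlap, with Car1 the most abundant at 95.5 FPKM. The 5 stem cell markers summed to 168.1, 194.4 and 186.4 FPKM in Tumor_WT and to 167.3, 143 and 157 FPKM in Tumor_KO, with Axin2 the most abundant at 91.6 FPKM, 1 tested marker lower without overlap and Olfm4 below the filter. The 6 enteroendocrine markers summed to 11.3 to 14 FPKM in Tumor_WT and 14.1 to 19.5 FPKM in Tumor_KO, with Chgb the most abundant at 6.9 FPKM and Neurod1 below the filter. These sums were apart by a narrow margin, and 0 of the 5 tested markers were without overlap. In each of these lists no marker was at 0 in all tumor libraries, and their part in the Hmox1 and Slc7a11 values was not tested.

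**Figure D3:**
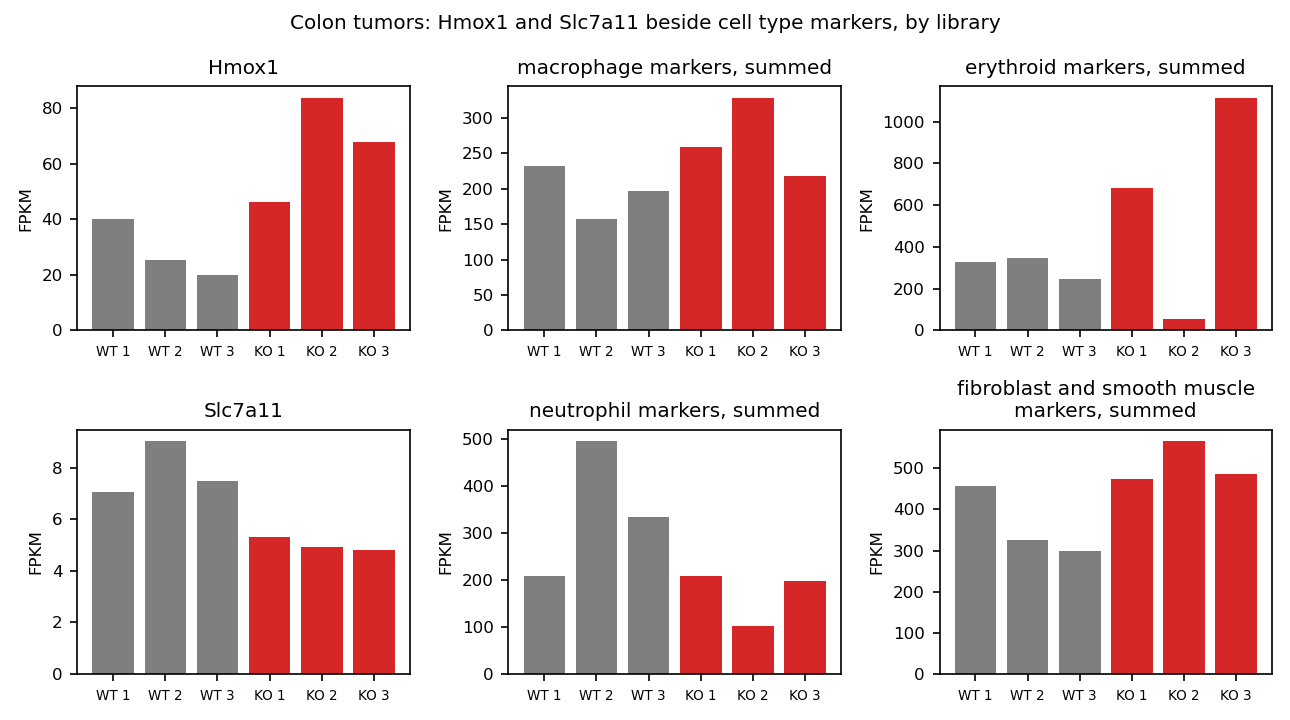
Hmox1 and Slc7a11 in FPKM in each tumor library, beside the summed FPKM of cell type marker lists. The neutrophil sum was 209.3 to 494.9 FPKM in Tumor_WT and 100.9 to 207.3 FPKM in Tumor_KO, and the macrophage sums of the groups overlapped.

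The levels of the 10 genes were ordered within each table. In crypts the means over 6 libraries were 82.4 FPKM for Gsr, 61.4 for Srxn1, 56.7 for Nfe2l2 and 38.6 for Txnrd1. Below these came Gclc at 18.1, Nqo1 at 16.8, Gclm at 14.4, Keap1 at 11.3, Hmox1 at 0.624 and Slc7a11 at 0.0749 FPKM. Neighbors in this order overlapped in range, except that Txnrd1, Gclc, Hmox1 and Slc7a11 each lay wholly below the gene above them. In tumors the order was Gsr at 71.5, Txnrd1 at 60.1, Hmox1 at 47.3, Nfe2l2 at 45.7, Srxn1 at 21.7, Gclc at 18.2, Gclm at 15.7, Keap1 at 15.6, Nqo1 at 8.96 and Slc7a11 at 6.43 FPKM. There Txnrd1 lay wholly below Gsr and Srxn1 wholly below Nfe2l2, and the other neighbors overlapped. These means pool the genotypes, and some neighbors change places between genotypes. Hmox1 was below Nfe2l2 in Tumor_WT (28.5 and 46.4 FPKM) and above Txnrd1 in Tumor_KO (66.0 and 61.1 FPKM). Nqo1 was below Gclc in Crypt_WT (12.5 and 18.7 FPKM) and above it in Crypt_KO (21.1 and 17.6 FPKM), and it likewise passed Gclm (13.5 FPKM in Crypt_WT and 15.2 FPKM in Crypt_KO). Srxn1 was above Nfe2l2 in Crypt_WT (62.7 and 50.4 FPKM) and below it in Crypt_KO (60 and 63.0 FPKM). Gclm was above Keap1 in Tumor_WT (15.2 and 14.4 FPKM) and below it in Tumor_KO (16.2 and 16.9 FPKM). Hmox1 and Slc7a11 were thus read mainly in tumors. Txnrd1 was also higher in every tumor library, at 51.1 to 66.8 FPKM against 34.4 to 43 FPKM in crypts. Srxn1 was higher in every crypt library, at 45.4 to 76.3 FPKM against 17.1 to 27.4 FPKM in tumors. The Nqo1 mean was higher in crypts, with ranges that overlapped (10.9 to 21.7 and 5.74 to 13.3 FPKM). The 2 tables were normalized separately, and the tissues also differ in gut segment, Apc genotype and stroma, so these differences between tissues were not tested.

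Promoter sequence was looked at because the genes are grouped by a shared factor. RefSeq promoter windows (GRCm38.p6, 250 bases before to 50 bases after the start) were available for 7 of the 10 genes, in 9 windows, and not for Gclc, Gsr and Hmox1. The core of the antioxidant response element, TGACNNNGC, was searched on both strands, together with the AP-1 core TGACTCA, which an antioxidant element can contain. TGACNNNGC was found in 4 of the 9 windows, those of Nfe2l2, Gclm, Srxn1 and 1 of the 3 of Txnrd1, beside 12.4% of all 32851 windows. TGACTCA was found in the Srxn1 window, at 102 and 45 bases before the start, beside 5.2% of all windows. A further core, TGATGCAA, known from amino acid response elements, was chosen after the Slc7a11 window had been read, and 0.895% of all windows hold it. The stretches that follow lie before the start and outside annotated exons. They are shown for Nqo1, by which the set was chosen, and for the genes with a match in such a stretch, written 5′ to 3′ on the strand of the gene with capitals marking the matches on either strand. They are Nqo1 at chr8:107403207-107403455 (minus strand), Gclm at chr3:122245307-122245556 (plus strand), the second Txnrd1 window at chr10:82859009-82859178 (plus strand), Srxn1 at chr2:152105274-152105515 (plus strand) and Slc7a11 at chr3:50443615-50443863 (minus strand).
Nqo1: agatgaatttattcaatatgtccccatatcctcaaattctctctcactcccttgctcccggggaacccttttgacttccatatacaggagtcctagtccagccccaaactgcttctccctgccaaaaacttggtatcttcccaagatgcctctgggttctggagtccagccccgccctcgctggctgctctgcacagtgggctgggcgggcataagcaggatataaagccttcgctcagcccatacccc
Gclm: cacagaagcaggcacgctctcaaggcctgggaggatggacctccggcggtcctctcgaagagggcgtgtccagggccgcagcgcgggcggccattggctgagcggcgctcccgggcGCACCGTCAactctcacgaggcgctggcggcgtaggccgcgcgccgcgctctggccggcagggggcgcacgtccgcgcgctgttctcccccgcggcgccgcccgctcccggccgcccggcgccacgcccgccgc
Txnrd1: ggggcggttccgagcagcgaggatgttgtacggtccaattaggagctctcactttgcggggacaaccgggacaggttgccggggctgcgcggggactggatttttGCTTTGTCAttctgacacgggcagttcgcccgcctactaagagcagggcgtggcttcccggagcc
Srxn1: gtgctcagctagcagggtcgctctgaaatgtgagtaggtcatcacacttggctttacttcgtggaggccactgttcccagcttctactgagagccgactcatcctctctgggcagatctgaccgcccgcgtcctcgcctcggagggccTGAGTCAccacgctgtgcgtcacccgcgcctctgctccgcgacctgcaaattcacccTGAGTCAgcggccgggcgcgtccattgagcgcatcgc
Slc7a11: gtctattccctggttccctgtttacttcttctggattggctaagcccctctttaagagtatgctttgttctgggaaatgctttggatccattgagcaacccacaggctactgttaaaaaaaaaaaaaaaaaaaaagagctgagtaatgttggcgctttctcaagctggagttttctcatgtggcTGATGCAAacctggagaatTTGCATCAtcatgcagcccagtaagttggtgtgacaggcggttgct

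The Gclm match GCACCGTCA begins 134 bases before the start and the Txnrd1 match GCTTTGTCA begins 92 bases before it. The Srxn1 match to TGACNNNGC lies 28 bases after the start and is not shown, and that of Nfe2l2 lies 240 bases before the start, in an exon of E030042O20Rik. Slc7a11 carries TGATGCAA 66 bases and its reverse complement 47 bases before the start. The Nqo1 window holds none of these letters. A match is a description of letters, and enhancers farther away were not searched.

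A wider list of 66 other genes of the NRF2 pathway was followed by role. In crypts 62 of the 66 were above the filter, and 44 had a log2 fold change above 0 and 18 below, with a median of 0.25. There 19 were higher without overlap (30.6%) and 1 was lower (1.61%), beside the crypt shares of 6.79% and 5.15% over all genes. These crypt figures come from the contrast that chose Nqo1, and nothing is read from them. Without the 2 libraries that held stomach mRNA the crypt counts were 26 higher (41.9%) and 13 lower (21%), beside 35.4% and 29.1% of all crypt genes in that setting of 1 library against 3. In tumors 62 of 66 were tested, again 44 above 0 and 18 below, with a median of 0.15 beside 0.008 over all tumor genes.

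By limma 0 of the 62 tumor genes of the wider list passed the adjusted threshold of 0.05, at 0.269 for the closest of them. At an unadjusted p under 0.05, 9 were higher (14.5%) and 4 lower (6.45%), beside 8.46% and 6% over all genes, and voom on recovered fragments gave 0 at an adjusted p under 0.05. In tumors 11 were higher without overlap (17.7%) and 3 lower (4.84%), beside 11.4% and 10.6%. At the same total the counts were 8 higher (12.9%) and 3 lower (4.84%), beside 8.63% and 13.8% of all genes at that scaling, and without the 50 genes with the most fragments they were also 8 and 3, beside 8.59% and 13.9%. By quantiles they were 6 (9.68%) and 7 (11.3%), beside 9.3% and 12.5%. The median was 0.11 at the first 2 scalings and 0.08 by quantiles. With a library left out, more genes of any kind lie apart, so each count has its own background. Leaving out Tumor_WT replicate 1 gave 26 higher (41.9%) and 6 lower (9.68%), beside 19.7% and 19.2% of all genes. Leaving out Tumor_KO replicate 1 gave 19 (30.6%) and 4 (6.45%), beside 16.2% and 15.2%. Leaving out Tumor_KO replicate 2 gave 15 (24.2%) and 8 (12.9%), beside 20.1% and 17.6%, and leaving out Tumor_WT replicate 2 gave 12 (19%) and 5 (7.94%), beside 14.8% and 13.7%.

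**Figure D4:**
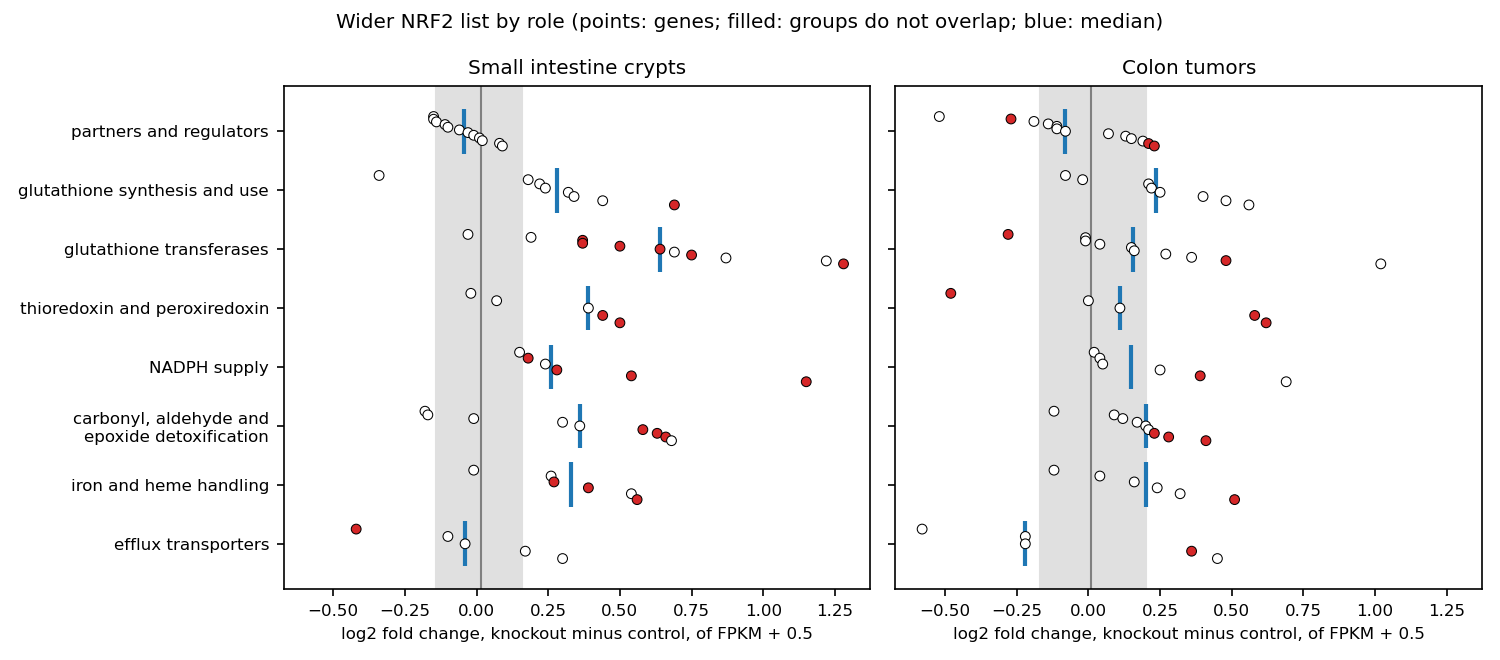
Log2 fold change of knockout over control for each gene of the wider list, by role, in crypts and tumors, filled where the groups do not overlap, with role medians in blue and a gray band for the middle quartiles of all tested genes. Glutathione transferases had a median of 0.64 in crypts and 0.16 in tumors, and partners and regulators were near 0 in both, at -0.04 and -0.08.

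Among partners and regulators the tumor median was -0.08 over 13 genes, or -0.13 at the same total, and 0 passed the test. Sqstm1, whose protein p62 traps KEAP1, had means of 82.6 ± 4.14 FPKM in Tumor_WT and 97.3 ± 9.70 FPKM in Tumor_KO (SD, n = 3), apart without overlap (log2 fold change 0.23, limma adjusted p = 0.365). Nfe2l1, a relative of NRF2 that drives proteasome genes, was also higher without overlap, at 41.8 ± 3.45 and 48.3 ± 0.994 FPKM (0.21, adjusted p = 0.349). Nfe2l3, another relative, was at 32.8 ± 6.11 and 22.9 ± 5.27 FPKM with overlap (-0.52, adjusted p = 0.337), and below the filter in crypts at 0.326 and 0.270 FPKM. Dpp3, a KEAP1-binding peptidase, was at 54.6 and 59.5 FPKM (0.13, adjusted p = 0.592). In crypts Sqstm1 was at 38.7 and 34.1, Nfe2l1 at 17.6 and 16.3, and Dpp3 at 40.0 and 42.7 FPKM, all with overlap. The 1 gene of this role that was lower in tumors without overlap was Btrc, named after its values were seen, at 2.15 and 1.70 FPKM.

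Glutathione genes beyond the 10 had a tumor median of 0.24 over 8 genes for synthesis and use, and of 0.16 over 10 transferases, with 0 passing the test. By quantiles these medians were 0.10 and 0.11. Gpx1, a glutathione peroxidase, was at 206.8 ± 17.6 and 246.9 ± 27.6 FPKM in Tumor_WT and Tumor_KO (0.25, limma adjusted p = 0.405), and at 198.2 ± 55.1 and 313.2 ± 42.3 FPKM in Crypt_WT and Crypt_KO, without overlap in crypts. The epithelial peroxidase Gpx2 was at 153.0 and 196.8 FPKM in tumors (0.40, adjusted p = 0.491) and at 126.4 and 149.6 FPKM in crypts. Gpx3, the secreted peroxidase, was at 63.7 and 88.6 FPKM in tumors (0.48, adjusted p = 0.338) and at 5.05 and 3.89 FPKM in crypts. Ggt1, which breaks down extracellular glutathione, was at 1.64 and 2.70 FPKM in tumors (0.56, adjusted p = 0.403) and at 96.9 and 118.2 FPKM in crypts. The latter 3 genes overlapped between groups in both tissues.

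The transferases join glutathione to electrophiles. In crypts 6 of 11 were higher without overlap, beside 6.79% of all crypt genes, with a median of 0.64, and nothing is read from this count either. Gstp1 was at 194.4 ± 30.7 and 274.0 ± 17.5 FPKM in crypts, and at 106.3 and 127.2 FPKM in tumors with overlap (0.27, limma adjusted p = 0.383). Gstm1 pointed different ways: it was at 42.0 and 71.3 FPKM in crypts with overlap, and at 66.1 ± 3.8 and 54.7 ± 6.82 FPKM in tumors without overlap (-0.28, adjusted p = 0.342). Gstm2 was the transferase with the smallest tumor p, at 9.50 ± 0.968 and 13.5 ± 0.874 FPKM without overlap (0.48, interval 0.24 to 0.73, adjusted p = 0.269), and at 8.19 and 9.19 FPKM in crypts.

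In the thioredoxin and peroxiredoxin role 2 of 5 tumor genes were higher without overlap and 1 lower, beside 11.4% and 10.6% of all tumor genes, with a median of 0.11. At the same total the median was 0.07. Txn1, thioredoxin itself, was at 241.0 ± 42.8 and 367.4 ± 37.9 FPKM in tumors (0.62, interval 0.22 to 1.02, limma adjusted p = 0.274) and at 454.6 ± 19.5 and 621.0 ± 67.6 FPKM in crypts, without overlap in either tissue. Prdx6, which reduces phospholipid peroxides, was at 69.7 ± 5.87 and 105.4 ± 18.9 FPKM in tumors without overlap (0.58, interval 0.22 to 0.94, adjusted p = 0.269), and at 46.7 and 60 FPKM in crypts with overlap. Prdx1 was nearly equal in tumors, at 190.9 and 192.6 FPKM (0.00, adjusted p = 0.993), and apart in crypts, at 210.8 and 297.1 FPKM. Txnrd3 was the gene on the lower side in tumors, at 7.18 ± 0.603 and 5 ± 0.618 FPKM (-0.48, adjusted p = 0.269), and at 3.33 and 3.26 FPKM in crypts.

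All 6 genes of NADPH supply had log2 fold changes above 0 in both tissues as deposited, with medians of 0.26 in crypts and 0.15 in tumors. In tumors this held for 4 of 6 at the same total and without the 50 genes with the most fragments, and for 3 of 6 by quantiles. By quantiles the medians were 0.14 in crypts and 0.02 in tumors. Taldo1, of the pentose phosphate pathway, was at 106.7 ± 14.4 and 139.5 ± 15.2 FPKM in tumors without overlap (0.39, limma adjusted p = 0.311), and at 174.6 and 194.6 FPKM in crypts with overlap. Idh1, the cytosolic isocitrate dehydrogenase, was at 94.3 and 98.4 FPKM in tumors (0.05, adjusted p = 0.916) and at 63.8 ± 8.74 and 92.9 ± 14.2 FPKM in crypts, apart in crypts alone. Pgd was at 50.3 and 59.1 FPKM in tumors with overlap (0.25, adjusted p = 0.473) and at 41.0 and 49.9 FPKM in crypts without.

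Carbonyl and aldehyde detoxification had a tumor median of 0.20 over 9 genes, with 3 higher without overlap, beside 11.4% of all tumor genes. By quantiles the median was 0.13. Akr1b8, an aldo-keto reductase, was apart in both tissues, at 29.4 ± 4.35 and 39.0 ± 2.45 FPKM in tumors (0.41, limma adjusted p = 0.295) and at 2.77 ± 0.207 and 4.69 ± 0.803 FPKM in crypts. Akr1c13, of the same enzyme family, was likewise apart, at 24.4 ± 1.26 and 28.8 ± 1.88 FPKM in tumors (0.23, adjusted p = 0.322) and at 38.6 ± 3.86 and 60.2 ± 4.60 FPKM in crypts. Ptgr1 overlapped in both, at 35.3 and 38.5 FPKM in tumors (0.12, adjusted p = 0.733) and at 35.1 and 43.1 FPKM in crypts.

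Iron and heme genes bear on the products of HMOX1, which are iron and biliverdin. Their tumor median was 0.20 over 6 genes, and 0.10 by quantiles. Slc40a1, the iron exporter ferroportin, was higher in tumors without overlap, at 9.15 ± 0.864 and 13.5 ± 3.79 FPKM (0.51, limma adjusted p = 0.321), and overlapped in crypts at 2.07 and 3.24 FPKM. The ferritin genes overlapped in tumors, Fth1 at 1761 and 1806 FPKM (0.04, adjusted p = 0.945) and Ftl1 at 306.7 and 382.7 FPKM (0.32, adjusted p = 0.434). Both were apart in crypts, Fth1 at 1140 ± 120.7 and 1674 ± 78.7 FPKM and Ftl1 at 232.1 and 279.3 FPKM. Blvra, which reduces biliverdin, was at 6.70 and 8.01 FPKM in tumors with overlap (0.24, adjusted p = 0.381) and at 6.55 and 8.79 FPKM in crypts without.

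The efflux transporters had a tumor median of -0.22 over 5 genes. Abcg2 was higher in tumors without overlap, at 1.36 and 1.89 FPKM (0.36, limma adjusted p = 0.399), while Abcc3 at 11.4 and 16.1 FPKM (0.45, adjusted p = 0.432), Abcc2 at 15.0 and 9.97 FPKM (-0.58, adjusted p = 0.336) and Abcc4 at 23.5 and 20.2 FPKM (-0.22, adjusted p = 0.444) overlapped. In crypts Abcc4 was the single gene of the wider list on the lower side without overlap, at 1.26 and 0.827 FPKM. The crypt levels of Abcc3 were 17.8 and 20.1, of Abcc2 26.7 and 32.3, and of Abcg2 17.6 and 15.4 FPKM, with overlap.

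Nqo1 and Slc7a11 also belong to lists of other factors, which were laid beside them. The aryl hydrocarbon receptor can induce Nqo1, and its list of 8 genes includes the receptor gene Ahr itself. Of the 8, 4 were above the filter in crypts (median 0.06, 0 without overlap, beside 6.79% higher and 5.15% lower of all crypt genes). Their log2 fold changes were 0.00 for Ahr, 0.08 for Arnt, 0.05 for Tiparp and 1.71 for Cyp1a1. In tumors 3 of the 8 were above the filter, namely Ahr, Arnt and Tiparp (median -0.12, 0 called by limma, 0 at an unadjusted p under 0.05, 0 by voom). Cyp1a1, a target of the receptor that was named after its values were seen, was at 0.162, 1.92 and 1.44 FPKM in Crypt_WT and at 4.69, 0.878 and 14.6 FPKM in Crypt_KO. Its knockout libraries spread widely, and the groups overlapped (log2 fold change 1.71, SE 0.881). In tumors Ahr was at 11.6 and 9.93 FPKM (-0.22, limma adjusted p = 0.596), Tiparp at 3.77 and 4.18 FPKM (0.13, adjusted p = 0.662), and Arnt, the 1 gene apart beside 10.6% of all tumor genes on the lower side, at 9.12 and 8.35 FPKM (-0.12, adjusted p = 0.557). ATF4 can induce Slc7a11, and its list of 11 genes includes Atf4 itself. The 11 had a median of 0.02 in crypts, with 0 without overlap, and of 0.11 in tumors, with 8 above 0 and 3 below. By limma 0 of these passed in tumors, with 1 higher (Asns, 9.09%) and 1 lower (Slc7a5, 9.09%) at an unadjusted p under 0.05, beside 8.46% and 6% of all tumor genes. Both were named after their values were seen. Slc7a5 was the 1 gene of the list apart in tumors, beside 10.6% of all genes on the lower side, at 22.8 and 18.2 FPKM (-0.32, adjusted p = 0.302), and Asns was at 12.8 and 16.0 FPKM. Atf4 was at 67.0 and 82.0 FPKM (0.28, adjusted p = 0.346), Slc3a2, which encodes the heavy chain that carries SLC7A11, at 43.1 and 42.6 FPKM (-0.02, adjusted p = 0.939), and Phgdh at 35.9 FPKM in both groups (-0.02, adjusted p = 0.978).

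The genes whose pattern was most like that of Nqo1 were sought over the 12 libraries, after log2 values had been centered on the mean of each table. Of 11562 genes above a mean of 1 FPKM in both tables, the highest Pearson r belonged to Tmem253 (0.86), Ltb4r1 (0.85), Idh1 (0.85), Ugt1a7c (0.84) and Cd302 (0.83), and the median gene was at 0.02. Among the 10 genes r was 0.63 for Gclm, 0.56 for Txnrd1, 0.28 for Keap1, 0.23 for Gsr, 0.22 for Nfe2l2, 0.14 for Gclc and 0.14 for Srxn1, while Hmox1 and Slc7a11 were not ranked, being below a mean of 1 FPKM in crypts. These values describe 12 libraries that include the crypt contrast by which Nqo1 was chosen, and they carry no test. Tmem253 was at 14.4 ± 2.40 and 21.6 ± 1.34 FPKM in crypts and at 8.24 and 10.2 FPKM in tumors, and Ugt1a7c, a glucuronosyltransferase whose locus shares exons with its neighbors, was at 14.7 ± 1.06 and 23.8 ± 3.16 FPKM in crypts and at 2.72 and 3.53 FPKM in tumors. Both were apart in crypts and overlapped in tumors, as Nqo1 did. Ltb4r1, a leukotriene receptor, was also apart in crypts, at 2.21 and 3.71 FPKM, and overlapped in tumors, at 1.66 and 1.57 FPKM. Cd302, a lectin receptor, overlapped in both, at 19.2 and 23.9 FPKM in crypts and at 7.12 and 7.73 FPKM in tumors.

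**Figure D5:**
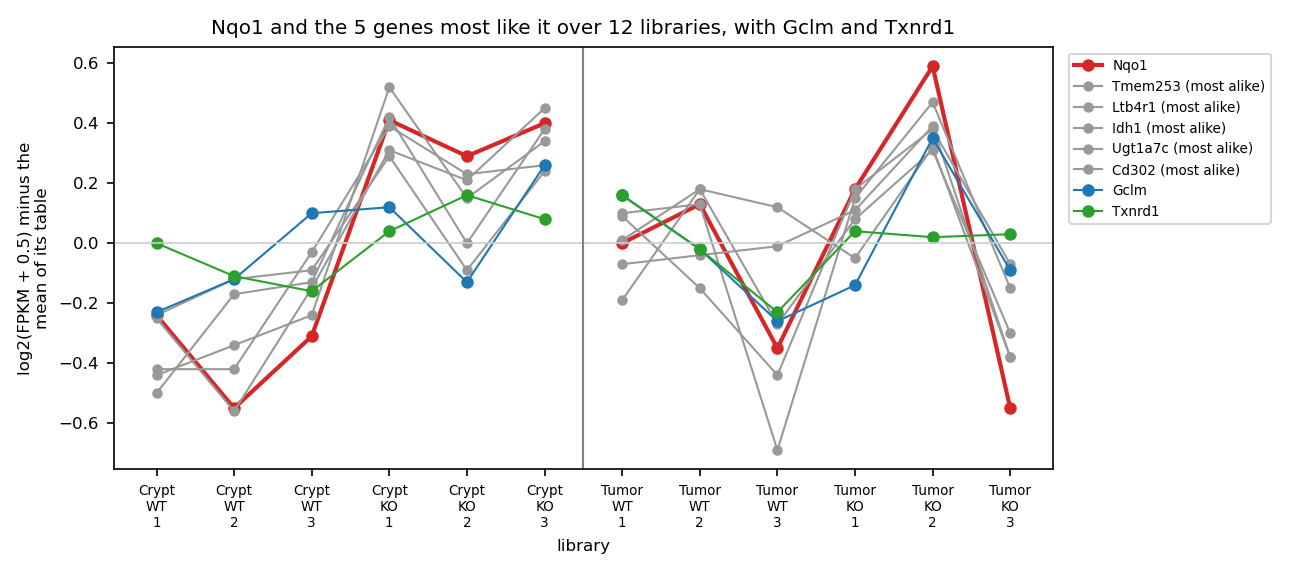
Log2(FPKM + 0.5) of Nqo1, of the 5 genes most like it and of Gclm and Txnrd1 in each of the 12 libraries, centered on the mean of each table, where lines join the points of 1 gene. Pearson r with Nqo1 ran from 0.83 for Cd302 to 0.86 for Tmem253.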

How the data were processed

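The authors trimmed reads with cutadapt, aligned them to mm10 with HISAT2 and computed the deposited FPKM with Cufflinks 2.2.1, per the labels. For counting, the study's methods name featureCounts instead, and which tool gave the deposited values was not tested. FPKM times gene length gave fragment numbers that were whole within 0.1 in all 12 libraries. Within each table, log2(FPKM + 0.5) of genes with a mean of at least 0.5 FPKM was fitted in limma 3.58.1 (R 4.3.3) with a variance trend, 3 libraries against 3, with Benjamini-Hochberg adjustment over all tested genes at 0.05. The fit was tested on simulated data. Exact two-sided permutation tests went through every split of the libraries of a table, in Python 3.11.15 with NumPy 2.4.6. Tables and figures also used pandas 2.3.3 and Matplotlib 3.10.9. Groups without overlap have every library of one above every library of the other. The members and lists were chosen with earlier results of these data known. Genes were named by rule: all 10 members, Ctnnb1, the 2 most abundant and the 2 smallest tumor p-values in each role of the wider list, the 3 most abundant of the AHR and ATF4 lists, the most abundant marker of a cell type, and the 5 genes most like Nqo1. Btrc, Asns, Slc7a5, Cyp1a1 and single cell type markers beside these were named after their values were seen. Alternatives covered the pseudocount, filter, scaling, variance model, gene types, sex, replicate block, voom and each library left out.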

Additional observations from a re-analysis of the deposited data

How the results depend on the processing

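In tumors the number of the 10 genes called by limma, and that of the wider list, was 0 under each of 19 alternatives. At an unadjusted p under 0.05, 1 of the 10 was higher and 1 lower as reported and in each alternative but 2: without Tumor_WT replicate 1 Srxn1 joined Hmox1 on the higher side, and without Tumor_WT replicate 2 Keap1 did. Of 190 tumor log2 fold changes of single genes under these alternatives, 181 kept their direction and 9 reversed. The reversed values were, without Tumor_WT replicate 3, Nfe2l2 0.12, Gclm -0.03 and Txnrd1 -0.04, and without Tumor_KO replicate 2, Nqo1 -0.11 and Gclm -0.08. The others were Nfe2l2 0.01 without Tumor_KO replicate 1, Gclc 0.04 without Tumor_KO replicate 3, Gsr 0.01 without Tumor_WT replicate 2, and Txnrd1 -0.08 after quantile normalization. The cause was not tested. With each library left out in turn, ranges were -0.11 to 0.46 for Nqo1, -0.14 to 0.12 for Nfe2l2, -0.16 to 0.04 for Gclc, -0.08 to 0.18 for Gclm, -0.07 to 0.01 for Gsr and -0.04 to 0.15 for Txnrd1. Keap1 then ran from 0.12 to 0.32 and Srxn1 from 0.18 to 0.43. Over all alternatives Hmox1 ran from 0.99 to 1.49 (limma adjusted p 0.147 to 0.595) and Slc7a11 from -0.66 to -0.50 (0.163 to 0.595).

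In crypts the number of the 10 genes without overlap went from 2 to 1 at the same total, by quantiles and without the 50 genes with the most fragments, since Txnrd1 then overlapped. Of all crypt genes, 6.43% lay higher and 4.31% lower without overlap at the same total. These shares were 5.35% and 4.9% by quantiles, and 4.2% and 7.43% without those 50 genes. The number of the 10 genes without overlap ran from 2 to 4 with each library left out, and was 5 without Crypt_WT replicates 1 and 2, a setting chosen after seeing the data. Crypt Nqo1 ran from 0.64 to 0.80. Of 169 crypt values of single genes, 165 moved by less than 1 SD of the replicates. Signs of values near 0 still turned. With each library left out, the range was 0.25 to 0.42 for Nfe2l2, -0.06 to 0.07 for Keap1, -0.34 to 0.00 for Gclc, 0.08 to 0.28 for Gclm, 0.03 to 0.41 for Gsr, 0.15 to 0.23 for Txnrd1, -0.25 to 0.12 for Srxn1 and -0.28 to 0.22 for Hmox1. Without Crypt_WT replicates 1 and 2, Gclm was at -0.01 and Hmox1 at 0.39, and Hmox1 was at 0.02 after quantile normalization. Slc7a11 had a crypt value only with no filter, and Hmox1 had none with a mean of at least 1 FPKM or without Crypt_KO replicate 2, since it was then below the filter. Leaving a group with few libraries assumes that it varies like the other group. Over all genes limma called 1 tumor gene with no variance trend and 3 crypt genes without Crypt_WT replicate 3, and 0 in the other settings. The unadjusted tumor counts of 1417 higher and 1004 lower were 1160 and 722 with the replicate block, 850 and 546 without Tumor_WT replicate 2, 852 and 576 without Tumor_WT replicate 3, and 1075 and 687 without Tumor_KO replicate 3. The unadjusted crypt counts of 494 and 335 were 1253 and 973 without Crypt_WT replicates 1 and 2, 700 and 641 without Crypt_WT replicate 1, 321 and 266 without Crypt_WT replicate 2, 241 and 217 without Crypt_KO replicate 1, and 714 and 635 with no filter. Replicates of the same number were not closer to each other than all other pairs: correlations across genes of paired residuals were -0.0466, -0.122 and 0.037 in crypts and 0.0541, -0.0898 and 0.0525 in tumors. Crypt Slc7a11 and Hmox1 rest on 7 to 24 and 6 to 41 fragments a library, and what limits them was not tested. Crypt_KO replicate 2 held the 41 Hmox1 fragments, beside 6 and 8 in the other Crypt_KO libraries.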
